A study of Mus musculus with 12 samples.

Results

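Gene expression of mouse marrow progenitors that carry both the inv(3) rearrangement and the Sf3b1 K700E mutation was compared with that of control progenitors that carry neither. The comparison rests on 6 of the 12 RNA-seq libraries of the series: the 3 labelled Mx1-Cre Sf3b1-K700E: Inv(3), called both-allele libraries here, and the 3 labelled Mx1-Cre, called control. Of 24411 genes in the deposited tables, 23206 lie on autosomes, and 13235 of these had enough counts to be tested. All libraries came from lineage-negative, cKit-positive cells of femora and tibiae, a gate that holds blood stem cells and progenitors. The C57BL/6 donors were CD45.2+, and both groups carried Mx1-Cre, a recombinase gene that the interferon inducer pIpC switches on. Donor marrow was transplanted into lethally irradiated CD45.1+ recipients mixed with CD45.1+ wild-type marrow as support, pIpC at 20 mg/kg was given in 3 doses from 4 weeks later, and cells were taken 6 months after that. The remaining 6 libraries, 3 with the inv(3) allele alone and 3 with Sf3b1 K700E alone, are used where a gene of the both-allele group is compared with the single alleles.

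In human myeloid leukemia, inv(3) places an enhancer of GATA2 beside EVI1, which is Mecom in the mouse and encodes a zinc-finger transcription factor needed by blood stem cells. SF3B1 is the part of the spliceosome that recognises the branch point of introns, and the K700E mutation, common in myelodysplastic syndromes, makes it use other 3′ splice sites. Both lesions can occur together in leukemia, and the title of the series names aberrant EVI1 splicing. The labels do not say how the inv(3) allele was built, whether its EVI1 copy is of mouse or human sequence, or whether the sorted cells were freed of support and recipient cells. EVI1 RNA whose sequence is not in the mouse annotation would not be counted under Mecom.

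Expected counts added up to between 76153040 and 79905476 per control library and between 76763188 and 84185031 per both-allele library. The gate markers were read first, with Kit at 439.8 to 465 CPM, which are counts scaled to a common library size, in control and 443 to 468 in both-allele libraries, and with the T cell genes Cd4 and Cd8a under 1 CPM in all 6. Itgam, the myeloid marker CD11b of the lineage stain, was 164 to 202 CPM in control and 258 to 307 with both alleles. Xist was at 24.0 to 39.9 CPM in control and 23.2 to 40.5 in both-allele libraries, and Y-linked RNA was present in all 6, whereas the inv(3) libraries lack Y-linked RNA, a difference that every comparison of both alleles with inv(3) also contains. Nothing states that replicate libraries came from different animals, so a p-value here reflects differences among these samples, which may be technical.

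Over these 6 libraries alone, principal component 1 took 82.4% of the variance and parted the groups, at -51.8 to -49.7 in control and 48.4 to 53.5 with both alleles. By edgeR's quasi-likelihood test at a Benjamini-Hochberg adjusted p under 0.05, 5431 autosomal genes differed between the groups, which is 41.0% of those tested: 2729 were higher (20.6%) and 2702 lower (20.4%) with both alleles. The median log2 change over all tested autosomal genes was 0.002; TMM scaling centres the changes, so neither this nor the near-equal counts bear on total RNA. The falls included more large changes than the rises. By more than 1 log2 unit, 756 genes were higher (5.71%) and 957 lower (7.23%). By more than 2 units the numbers were 269 (2.03%) and 478 (3.61%), and by more than 3 units 125 (0.944%) and 230 (1.74%). When genes averaging under 5 CPM were left out, the balance of large changes was closer, at 239 and 235, 57 and 84, and 22 and 39. Of the 5431 called genes, the 3 values of each group did not overlap in 5352, beside 7255 (54.8%) of all tested.

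**Figure D1:**
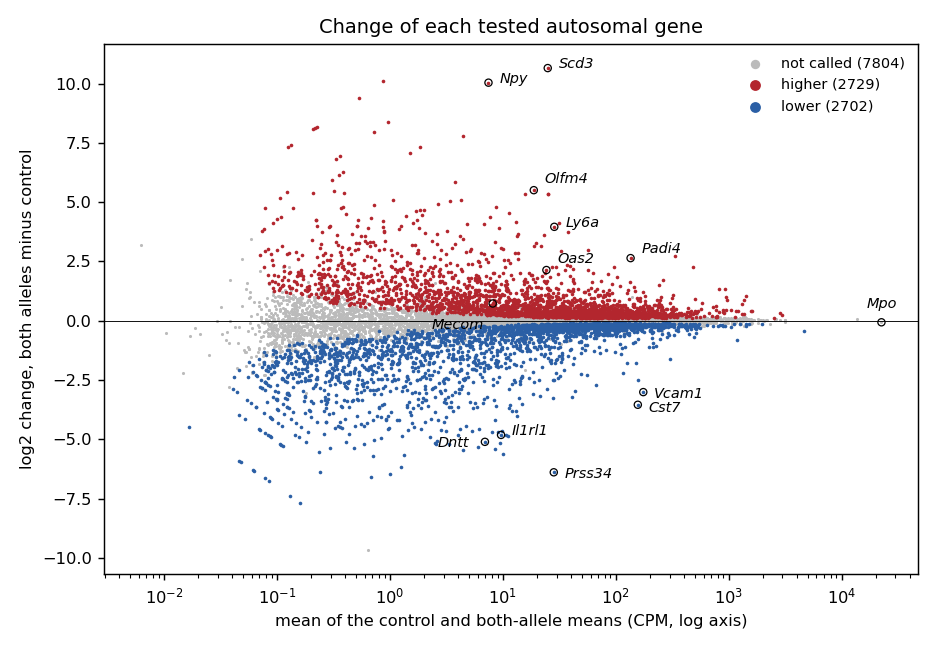
Log2 change with both alleles against control (vertical axis) by mean level in CPM (horizontal log axis) for the 13235 tested autosomal genes, with 2729 higher genes in red, 2702 lower genes in blue and the others in grey. The genes of the largest falls, such as Prss34 and Il1rl1, and of the largest rises, such as Scd3 and Npy, lie far outside the band that holds the abundant granule gene Mpo.

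Mecom (chromosome 3, 29951296 to 30509759, GRCm38) was 5.49, 6.59 and 6.37 CPM in the control libraries and 10.3, 8.98 and 11.2 in the both-allele libraries. All 3 both-allele values lay above the 3 control values, a log2 change of 0.72 ± 0.20 (SE, adjusted p = 0.0114), n = 3 per group. With the inv(3) allele alone Mecom was 5.86, 3.65 and 4.24 CPM and with Sf3b1 K700E alone 7.12, 10.99 and 7.32, so that the both-allele libraries overlapped those of the splicing mutation. When each gene's effective length was an offset in the fit, the change of Mecom was 0.48 and did not pass (adjusted p = 0.06). The length itself had changed, as given with the isoform lengths. Sf3b1, the mutated gene, was 674, 620.0 and 609.7 CPM in the control libraries and 650.1, 630.4 and 688 in the both-allele libraries and was not called (adjusted p = 0.521). Gata2 encodes a stem and mast cell factor, and human inv(3) moves an enhancer of its human counterpart. Mouse Gata2 was 63.2, 83.4 and 87.8 CPM in control and 110.1, 68.3 and 94.9 with both alleles, with overlapping values and a log2 difference of 0.22 ± 0.17 (adjusted p = 0.335). Rpn1, a glycosylation gene beside Gata2, differed by -0.13 ± 0.05 (adjusted p = 0.065); that difference passed with DESeq2 (adjusted p = 0.044) and without both-allele replicate 2 (-0.19, adjusted p = 0.0035).

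Genes close to Mecom and Gata2, on mouse chromosomes 3 and 6, were read for the same contrast. Since the labels do not say how the allele was built, neither window is known to span a rearranged site. Within 1 Mb of Mecom, 8 autosomal genes were tested, of which 1, Mecom, was higher and 2 were lower. Beside Mecom, the kinase gene Prkci was lower by a log2 change of -0.25 (60.5 to 50.7 CPM, adjusted p = 0.0118) and the transporter gene Slc7a14 by -0.63 (2.32 to 1.5 CPM, adjusted p = 0.0167; 0.066 without both-allele replicate 1), and Mynn, Sec62, Gpr160, Phc3 and Skil were not called. Around Gata2, 27 genes were tested, of which 2 were higher (Antxr1 and Podxl2) and 6 lower (Efcc1, Aplf, Rab43, Arhgap25, Cnbp and Isy1), a smaller share than the 41.0% of all genes. The calls of Cnbp and Isy1 ended in 4 and 5 of the 6 fits that left out 1 library. Efcc1 fell from a mean of 3.14 to 0.139 CPM, a log2 change of -4.48, and Antxr1 rose from 1.3 to 3.21 CPM, a change of 1.30, while Eefsec, Ruvbl1 and Rab7 differed by less than 0.1 log2 units and were not called.

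Stem and early progenitor genes split into a group that rose and a group that fell. Of 32 tested, 11 were higher (34.4%, against 20.6% of all genes) and 8 lower (25%, against 20.4%), with a median of -0.10. The rises were led by Ly6a, which encodes the stem cell antigen Sca-1 of the mouse and is also induced by interferon. Ly6a was 3.39, 3.39 and 3.6 CPM in the control libraries and 47.4, 51.7 and 62.3 in the both-allele libraries, and no both-allele value came near the control values. Its log2 change was 3.96 ± 0.31 (SE, adjusted p = 3.1e-06), a 15.5-fold rise of the fitted level. Angpt1, a ligand of the receptor Tek, rose from 105, 108 and 104 to 263, 202 and 271 CPM (log2 change 1.22 ± 0.15 SE, adjusted p = 7.48e-05). Its receptor gene Tek rose too, from a mean of 6.34 to 12.6 CPM (0.99, adjusted p = 0.0255); this call ended without any one of 5 of the 6 libraries, both-allele replicate 2 being the exception (adjusted p 0.051 to 0.091). Among transcription factors of stem cells, Prdm16, a paralog of Mecom, rose by 1.93, Sox4 by 0.78, Erg by 0.52 and Lmo2 by 0.42.

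Falls among stem and progenitor genes were larger in size. Flt3, the receptor of multipotent and lymphoid-primed progenitors, was 41.4, 49.7 and 56.6 CPM in the control libraries and 12.5, 9.43 and 9.94 in the both-allele libraries. The groups did not overlap, and the log2 change was -2.21 ± 0.16 (SE, adjusted p = 1.44e-06). Gng11, a G protein subunit of stem cells, fell from 6.16, 5.34 and 4.83 to 0.143, 0.338 and 0.185 CPM (log2 change -4.61 ± 0.36 SE, adjusted p = 2.12e-06). The stem cell factors Hlf and Mllt3 changed by -1.10 and -0.49, and the sialomucin gene Emcn, of stem and endothelial cells, by -4.97 from a level of only 1.63 CPM. Cd34, an antigen of early progenitors, was 280.1, 290.4 and 316 CPM in control and 271, 181 and 213 with both alleles; its difference of -0.41 ± 0.19 did not pass in the fit to all 12 libraries (adjusted p = 0.103) and passed when the 6 libraries were fitted alone (adjusted p = 0.036) or without both-allele replicate 1 (-0.59, adjusted p = 0.041). The same genes were also set against inv(3) alone. In that contrast 13.1% of all tested genes were higher and 9.24% lower with both alleles, and of the 32 stem and early progenitor genes 25 were higher and none lower. The median log2 difference of the 32 from inv(3) was 1.10. Against Sf3b1 K700E alone the list leaned the other way, with 7 of the 32 higher, 16 lower and a median of -0.54. In that contrast 25.7% of all tested genes were higher and 23.5% lower.

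**Figure D2:**
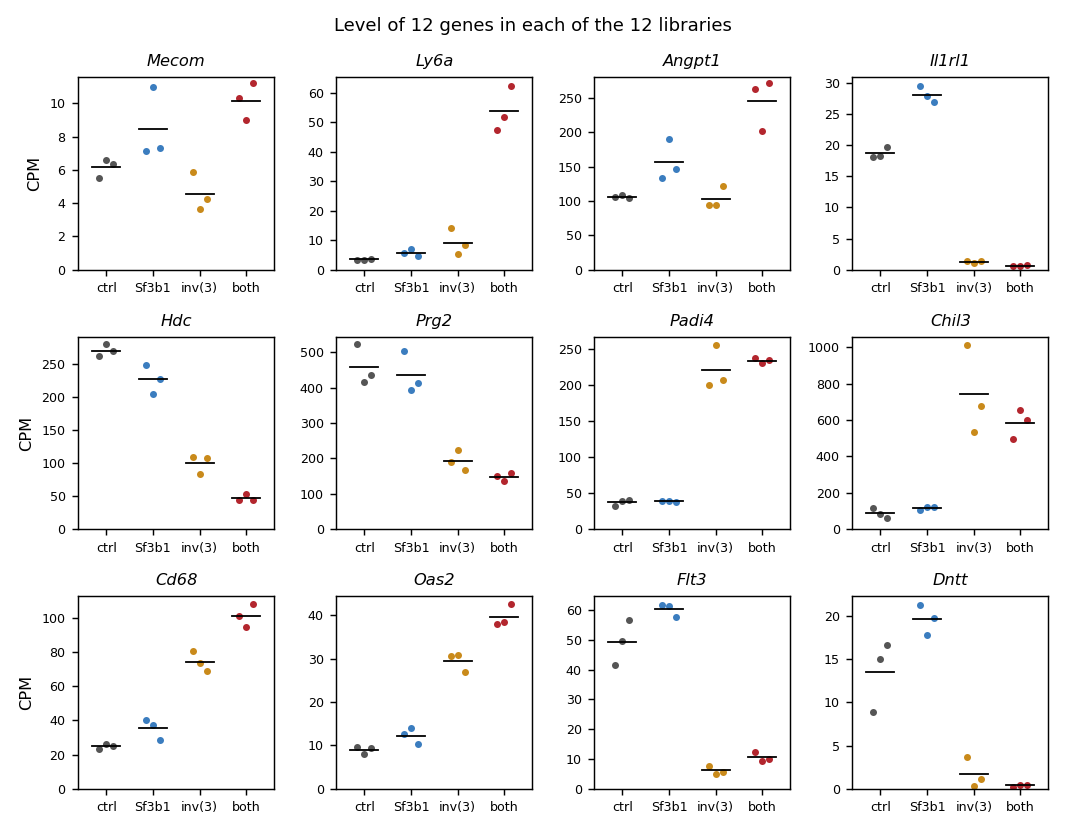
Level in CPM (vertical axes, from 0) of 12 genes in each of the 12 libraries, 3 points per group with a bar at the group mean; the groups are control, Sf3b1 K700E, inv(3) and both alleles. Ly6a and Angpt1 are highest in the both-allele libraries, Il1rl1, Hdc, Prg2 and Dntt are low with inv(3) alone and with both alleles, and Padi4, Chil3, Cd68 and Oas2 are high in those same groups.

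Transcripts of mast cells, basophils and eosinophils were among the largest falls. Prss34, a protease of basophils, was 54.5, 52.8 and 60.7 CPM in the control libraries and 0.56, 0.897 and 0.541 in the both-allele libraries. The groups lay far apart, with a log2 change of -6.39 ± 0.67 (SE, adjusted p = 3.62e-05). Il1rl1, the receptor of interleukin 33 on mast cells and basophils, went from 18.1, 18.2 and 19.7 to 0.584, 0.637 and 0.766 CPM (log2 change -4.82 ± 0.12 SE, adjusted p = 8.82e-10). Hdc, the enzyme that makes histamine, fell from 263, 279.7 and 269 to 43.6, 53.4 and 44.4 CPM, with no overlap and a log2 change of -2.52 ± 0.11. The IgE receptor chain gene Ms4a2 changed by -2.50 ± 0.13, the carboxypeptidase gene Cpa3 by -2.95 and the growth factor gene Hgf by -1.64 ± 0.11. In all, 11 of 22 tested mast cell and basophil genes fell (50%) and 5 rose (22.7%), and the median was -0.40. Not every member fell. Cd200r3, an activating receptor of mast cells and basophils, was 0.603, 0.529 and 0.665 CPM in the control libraries and 14.4, 14.1 and 21.6 in the both-allele libraries, a rise of 4.80 ± 0.31 (SE, adjusted p = 7.1e-07). Fcer1a, the chain of the IgE receptor that binds the antibody, was 12.5 and 14.7 CPM and was not called (adjusted p = 0.716).

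Of 14 eosinophil genes, 10 fell (71.4%) and none rose, with a median of -1.36. Prg2, the major basic protein of eosinophil granules, was 524, 415 and 436 CPM in the control libraries and 150.2, 135 and 159 in the both-allele libraries, a log2 change of -1.63 ± 0.13 (SE, adjusted p = 2.65e-06). Csf2rb, the signalling chain shared by the receptors of interleukin 3, interleukin 5 and GM-CSF, fell from 162, 163 and 162 to 66.8, 54.9 and 62.1 CPM (log2 change -1.41 ± 0.11 SE, adjusted p = 1.76e-06). Its mouse paralog Csf2rb2 changed by -1.31 ± 0.17, and reads shared by that pair may be split between them. The granule ribonucleases Ear1 and Ear2 changed by -4.55 ± 0.30 and -3.06 ± 0.21, again with near-identical copies in the mouse genome. The ligand-binding chain Il5ra was not called, at means of 2.18 and 2.8 CPM. In these bulk libraries, fewer cells of a type and less RNA per cell of that type cannot be told apart, which holds for every cell-type list here.

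Most erythroid and megakaryocytic genes fell. Of 32 autosomal erythroid genes, 25 were lower (78.1%, against 20.4% of all genes) and 1 higher, with a median log2 change of -1.80. Samd14, which tunes Kit signalling in erythroid precursors, was 13.6, 16.3 and 18.99 CPM in the control libraries and 0.965, 0.832 and 0.898 in the both-allele libraries. Values of the groups did not overlap, and the change was -4.18 ± 0.17 (SE, adjusted p = 2.18e-08). Epb4.2, which encodes the membrane protein band 4.2, fell from a mean of 2.21 ± 0.22 to 0.12 ± 0.0789 CPM (SD, n = 3), and Trim10, a gene of terminal red cell maturation, changed by -4.19 ± 0.42. The lineage regulators fell as well, with log2 changes of -1.74 for Gfi1b, -1.65 for Klf1 and -1.03 for Tal1 (adjusted p = 0.000441, 0.005 and 5.53e-05). Epor, the erythropoietin receptor, changed by -1.78 and the carbonic anhydrases Car1 and Car2 by -2.21 and -1.79. The exception in the list was Nfe2, a factor of platelet and globin gene expression, which rose from 155, 157 and 154 to 248, 218 and 246 CPM (log2 change 0.61 ± 0.05 SE, adjusted p = 2.68e-06).

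Among 28 megakaryocyte and platelet genes, 18 fell (64.3%) and 3 rose (10.7%), with a median of -0.97. Itga2b, the integrin CD41 that marks megakaryocytes and early progenitors, was 68.8, 85.1 and 92.8 CPM in the control libraries and 21.1, 12.8 and 17.4 in the both-allele libraries. Its log2 change was -2.27 ± 0.20 (SE, adjusted p = 6.82e-06), and its partner Itgb3 changed by -2.18. Plek, the main kinase C substrate of platelets, fell from 90.4, 91.7 and 97.1 to 23.4, 15.4 and 17.5 CPM (log2 change -2.31 ± 0.15 SE, adjusted p = 9.84e-07). The thrombin and purine receptors F2rl2 and P2rx1 changed by -2.91 ± 0.22 and -0.70 ± 0.07. Selp and Thbs1, granule proteins of platelets that other cells also make, went the other way, from means of 35.2 and 12.7 to 137 and 49.2 CPM.

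Heme and globin genes did not move as one. Of 17 genes of heme synthesis and transport, 8 fell (47.1%, against 20.4% of all genes) and 2 rose (11.8%, against 20.6%). Fech, which inserts iron into the ring, changed by -0.67 ± 0.06, Cpox by -0.64 ± 0.05 and the mitochondrial transporter Abcb10 by -0.67 ± 0.08. Alas1, the housekeeping first enzyme of the pathway, rose by 0.36. Of the autosomal iron genes, the exporter Slc40a1 fell from 126, 115 and 107 to 46.7, 54.9 and 47.1 CPM (log2 change -1.22 ± 0.11 SE, adjusted p = 6.29e-06), the ferrireductase Steap3 changed by -1.13 ± 0.08 and the ceruloplasmin gene Cp rose from a mean of 0.279 to 2.03 CPM. Adult globin genes went both ways, 4 of 6 higher (66.7%) and 1 lower (16.7%). Hbb-b2 and Hbb-bt, near-identical copies with equal counts whose reads cannot be assigned to one of them, were each 1.1, 1.17 and 1.37 CPM in the control libraries and 44.5, 40.98 and 61.3 in the both-allele libraries, a log2 change of 5.33 ± 0.44 (SE, adjusted p = 4.66e-06). Hbb-b1 rose by 1.90 ± 0.38 and Hba-a1 was 10.4 and 6.3 CPM; its fall (-0.72) did not pass by limma-voom or without any one library other than control replicate 1. The copies share long stretches, so reads may be split among them: Hba-a2 had 0 counts in control and 248 with both alleles, and Hbb-bs, at means of 1.01 and 0.761 CPM, was not called (adjusted p = 0.84). Summed over the 6 tested globin genes, Hbb-b2 and Hbb-bt both included, the level was 14.5 to 20 CPM in control and 98 to 147 with both alleles.

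The erythroid and mast cell programs share regulators of the GATA family, which bind the letters AGATAA. Promoter sequences from RefSeq (GRCm38.p6), the 250 bases before each gene start, could be matched for 10538 of the tested autosomal genes. On either strand AGATAA occurred in 7.32% of these, in 7 of 22 matched erythroid genes (31.8%) and in 6 of 21 matched mast cell and basophil genes (28.6%). All 7 of those erythroid genes, and 4 of the 6 others, fell. Lists without that direction held the letters as often: 6 of 15 matched chemokine receptor genes (40%) and 5 of 13 late neutrophil genes that rose (38.5%), so the share is not particular to genes that fell. The sequences below are shown because they carry the letters, in capitals, close to the start of genes that changed by over 1 log2 unit, read 5′ to 3′ on the gene's strand. A match describes the letters in the window and is not a site.
Prss34, chr17:25298338-25298393, plus strand: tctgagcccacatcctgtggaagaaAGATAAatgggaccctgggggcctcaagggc
Cpa3, chr3:20242197-20242252, minus strand: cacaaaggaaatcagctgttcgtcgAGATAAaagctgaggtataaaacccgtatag
Epor, chr9:21963600-21963655, minus strand: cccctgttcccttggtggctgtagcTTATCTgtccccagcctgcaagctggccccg
Rhd, chr4:134864468-134864523, plus strand: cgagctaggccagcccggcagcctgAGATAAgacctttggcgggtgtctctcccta
Kel, chr6:41704351-41704406, minus strand: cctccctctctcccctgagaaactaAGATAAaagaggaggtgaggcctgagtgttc
Cd200r3, chr16:44943614-44943669, plus strand: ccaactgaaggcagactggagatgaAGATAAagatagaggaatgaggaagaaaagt

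Of the genes shown, Prss34, Cpa3, Epor, Rhd and Kel fell, with log2 changes of -6.39, -2.95, -1.78, -3.47 and -2.47. Cd200r3, which has the same letters, rose by 4.80.

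Genes of maturing neutrophils rose more often than they fell. Of 28 tested, 14 were higher (50%) and 2 lower (7.14%), with a median of 0.78. Padi4, the enzyme that citrullinates histones when neutrophils release chromatin, was 32.4, 39.1 and 41.1 CPM in the control libraries and 237, 229.8 and 234 in the both-allele libraries. The spread within each group was small beside the difference, a log2 change of 2.64 ± 0.10 (SE, adjusted p = 2.18e-08). Chil3, a secreted chitinase-like protein, rose from 116, 82.8 and 64.05 to 497, 654 and 598 CPM (log2 change 2.73 ± 0.26 SE, adjusted p = 1.22e-05). Lcn2, the siderophore-binding protein of secondary granules, rose from 13.3, 13.8 and 12.6 to 50.2, 64.5 and 80.9 CPM (log2 change 2.30 ± 0.18 SE, adjusted p = 2.95e-06). Olfm4, of the same granules, was 0.904, 0.857 and 0.677 CPM in the control libraries and 32.6, 37.2 and 40.8 in the both-allele libraries, with no overlap (log2 change 5.50 ± 0.45 SE, adjusted p = 4.63e-06). The calprotectin gene S100a9 rose by 0.99, and the chemokine receptor gene Cxcr2 by 1.44. Itgam, the CD11b of the lineage stain, was also higher, as given above, and the part of lineage-marked cells in these rises was not tested. Anxa1, a regulator of neutrophil migration, and Trem1 fell, by changes of -1.05 and -0.90. One library set the value of Ltf, the lactoferrin of secondary granules. Ltf was 1.06, 0.857 and 0.887 CPM in the control libraries and 1.45, 2.46 and 60.99 in the both-allele libraries, a log2 change of 4.53 ± 1.40 (SE, adjusted p = 0.0272) that became 1.06 (adjusted p = 0.2) without both-allele replicate 3. Its call also ended without any one control library, by limma-voom (2.63, adjusted p = 0.24) and when the 6 libraries were fitted alone (adjusted p = 0.14). The rises of Mmp9 (3.64, adjusted p = 0.0272) and Fpr2 (2.59, adjusted p = 0.0386) leaned on the same library. Without both-allele replicate 3 they were 1.19 and 0.67 (adjusted p = 0.29 and 0.42), and neither passed by limma-voom. Mmp8, of the same list, went the other way, at -1.18, and was not called (adjusted p = 0.372). Its fall passed by limma-voom and without both-allele replicate 3, where it was -5.71 (adjusted p = 0.000156). Camp was not called either (0.105, adjusted p = 0.832).

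Genes of the earlier primary granules were split, with 6 of 22 higher and 6 lower and -0.08 as the median. Each share was 27.3%, against 20.6% higher and 20.4% lower among all genes. The myeloperoxidase gene Mpo was 22110.0, 24060.0 and 23140.0 CPM in control and 21360.0, 23840.0 and 20920.0 with both alleles and was not called (adjusted p = 0.486). Elane, neutrophil elastase, fell by 0.43 on the log2 scale, while Prss57, a related protease, rose by 0.34. Lyz2, the lysozyme of myeloid cells, was 191, 160.1 and 154 CPM in the control libraries and 842, 652 and 932 in the both-allele libraries, a rise of 2.26 ± 0.18 (SE, adjusted p = 3.9e-06). Its near-identical copy Lyz1, at a mean of 1.55 CPM with both alleles, may hold some of its reads. Cst7, an inhibitor of cathepsins, fell from 312, 292 and 264 to 22.6, 27.9 and 23.9 CPM (log2 change -3.55 ± 0.18 SE, adjusted p = 1.23e-07). Igfbp4, which binds insulin-like growth factors, changed by -0.55 ± 0.06.

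Monocyte genes went both ways: 6 of 24 rose and 11 fell. The share that fell was 45.8%, against 20.4% of all genes. The share that rose was only a little above the 20.6% of all genes. The falls held the receptors of the lineage. Csf1r, the receptor of the monocyte growth factor M-CSF, fell from a mean of 92.1 to 37.5 CPM (-1.29), a call that ended without control replicate 1 or both-allele replicate 2 or 3 (adjusted p 0.052 to 0.054). The chemokine receptors Ccr2 and Cx3cr1 changed by -1.24 and -1.14, and the Fc receptor Fcgr3 by -1.12 ± 0.09. The monocyte factor Klf4 changed by -2.01. The rises held membrane proteins of the Ms4a cluster and the lysosomal protein Cd68. Ms4a4c was 3.67, 3.19 and 3.48 CPM in the control libraries and 61.2, 55.2 and 63.3 in the both-allele libraries (log2 change 4.12 ± 0.12 SE, adjusted p = 2.9e-09). Cd68 was 23.3, 26.4 and 25.1 and 101, 94.3 and 108 CPM, a change of 2.02 ± 0.11 (SE, adjusted p = 2.55e-07), and Ms4a6b rose by 1.24 ± 0.08.

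Among dendritic cell, antigen presentation and macrophage genes falls outnumbered rises. Of 17 dendritic cell genes, 8 fell (47.1%, against 20.4% of all genes) and none rose. Among the falls were the integrin Itgax (-1.96 ± 0.29) and the factor Zbtb46 (-2.44 ± 0.37). Of 15 genes of MHC class II presentation, 7 fell (46.7%) and 2 rose (13.3%, against 20.6% of all genes). H2-DMa, which loads peptides, was 51.7, 56.1 and 60.3 CPM in the control libraries and 29.9, 19.7 and 21.2 in the both-allele libraries. Its log2 change was -1.25 ± 0.19 (SE, adjusted p = 0.000342), while the promoter-binding factor Rfx5 rose by 0.46 ± 0.05. Without both-allele replicate 1 the falls of the class II list numbered 4. Of 21 macrophage genes 14 fell (66.7%) and 1 rose (4.76%). The macrophage falls numbered 9 without control replicate 2, 4 without control replicate 3, 4 without both-allele replicate 1 and 6 by limma-voom. Vcam1, the adhesion molecule of stromal cells and macrophages, was 384, 285 and 268 CPM in the control libraries and 41.8, 42.98 and 31.4 in the both-allele libraries, a fall with no overlap (log2 change -3.01 ± 0.23 SE, adjusted p = 2.81e-06). Apoe, a lipid carrier that macrophages secrete, rose from 56.1, 75.8 and 92.97 to 207, 147 and 194 CPM (log2 change 1.29 ± 0.18 SE, adjusted p = 0.000224). The complement chains C1qa, C1qb and C1qc, which define resident macrophages, were low in this gate, at means of 5.4, 5.27 and 5.3 CPM in control and 1.89, 1.97 and 1.74 with both alleles. These falls did not pass by limma-voom, without control replicate 3 or without both-allele replicate 1. Summed over the list, macrophage genes were 667 to 723 CPM in control and 391 to 454 with both alleles; the part of macrophages in other results was not tested.

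More lymphoid genes fell than rose. B cell genes summed to 36.5 to 39.4 CPM in control and 46.2 to 55.4 with both alleles, whereas lymphoid-primed genes, led by the widely expressed factor Ikzf1, summed to 754 to 824 and 671 to 757, and T and NK cell genes, mostly Nkg7, to 474 to 531 and 333 to 457. Dntt, the polymerase that adds bases at antigen receptor joints in lymphoid progenitors, was 8.92, 15.1 and 16.6 CPM in the control libraries and 0.262, 0.494 and 0.422 in the both-allele libraries. Every both-allele value was below 1 CPM, and the log2 change was -5.11 ± 0.69 (SE, adjusted p = 0.000177). Rag2, of the recombinase that joins these genes, changed by -4.21 ± 0.48 from a mean of 1.75 CPM, and Gata3, a T lineage factor, by -3.10 ± 0.64 from 1.31 CPM. Of 15 lymphoid-primed genes 7 fell (46.7%) and 1 rose (6.67%). Of 15 B cell genes 5 fell (33.3%) and 3 rose (20.0%), and of 12 T and NK cell genes 4 fell (33.3%) and 2 rose (16.7%). Among all genes 20.4% fell and 20.6% rose. Fcer2a, the low-affinity IgE receptor CD23 of B cells, went against this, at 0.0262, 0.0378 and 0.0493 CPM in control and 7.51, 4.82 and 14.03 with both alleles. Gzmb, granzyme B, rose from 3, 2.96 and 2.98 to 15.98, 14.9 and 21.8 CPM (log2 change 2.56 ± 0.20 SE, adjusted p = 1.91e-06) and the kinase Lck by 1.01 ± 0.24.

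**Figure D3:**
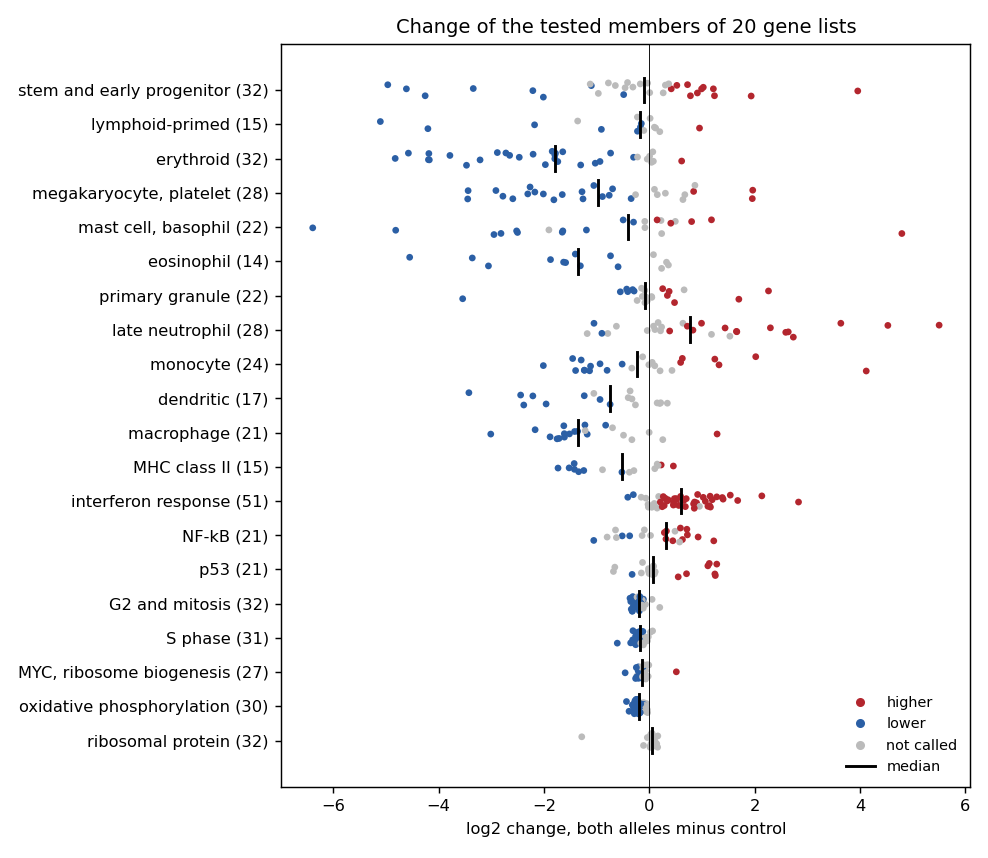
Log2 change with both alleles against control (horizontal axis) of each tested autosomal member of 20 gene lists, 1 point per gene, with red for higher, blue for lower and grey for not called, a bar at the list's median and the number tested in brackets. The erythroid and eosinophil medians lie at -1.80 and -1.36 and those of late neutrophil and interferon response genes at 0.78 and 0.59, while the cell cycle and oxidative phosphorylation lists lie in a narrow band just below 0.

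Most interferon-response genes rose. Of 51 tested, 38 were higher (74.5%, against 20.6% of all genes) and 2 lower, with a median of 0.59. Both groups had received the interferon inducer pIpC months earlier. Oas2, one of the synthetases that sense viral double-stranded RNA, was 9.52, 8.12 and 9.46 CPM in the control libraries and 38.1, 38.4 and 42.6 in the both-allele libraries. Groups were well apart, with a log2 change of 2.14 ± 0.11 (SE, adjusted p = 1.04e-07). Oas1g rose from 4.24, 3.05 and 2.89 to 23.01, 25.4 and 24.2 CPM (log2 change 2.83 ± 0.17 SE, adjusted p = 3.09e-07) and Oas1a from 26.1, 23.9 and 26.9 to 54.6, 58.1 and 56.9 CPM (log2 change 1.14 ± 0.05 SE, adjusted p = 6.93e-08), though these copies are alike enough that reads may be split between them. Ddx58, the RNA sensor RIG-I, rose by 0.90 ± 0.07. The effectors Isg15, Ifit1 and Rsad2 rose by 1.40, 1.39 and 1.02, the factors Irf7 and Irf9 by 0.86 and 0.65, and the receptor chain Ifnar1 by 0.28. Ifit2 and Isg20 fell, by changes of -0.41 and -0.30, the latter not passing without control replicate 3 or both-allele replicate 1 or 3. The immunoproteasome genes Psmb8 and Psmb9 differed by -0.07 and 0.05 and were not called.

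The promoters of this list were searched for the core of the interferon-stimulated response element, GAAA, any 2 bases and GAAA again, read on both strands with overlaps counted. It occurred in 3.33% of the 10538 matched genes and in 17 of 38 matched interferon-response genes (44.7%). Of the 27 that rose and could be matched, 13 held it (48.1%), a share near the 44.7% of the whole list. Matched members that did not rise held it as well, so the element is not particular to genes of the list that rose. Stretches of 5 promoters are given with each match in capitals, overlapping matches running together, to show how the element lies in genes that rose.
Oas1g, chr5:120887614-120887656, minus strand: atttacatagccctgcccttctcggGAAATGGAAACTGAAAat
Oas1a, chr5:120907526-120907570, minus strand: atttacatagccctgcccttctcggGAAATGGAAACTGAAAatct
Oas3, chr5:120777700-120777759, minus strand: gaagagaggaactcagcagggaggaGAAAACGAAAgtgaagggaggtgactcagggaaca
Isg15, chr4:156200850-156200921, minus strand: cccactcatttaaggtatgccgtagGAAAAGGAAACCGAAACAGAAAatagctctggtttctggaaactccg
Ifit1, chr19:34640760-34640838, plus strand: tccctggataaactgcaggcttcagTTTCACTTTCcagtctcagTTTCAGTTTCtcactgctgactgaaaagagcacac

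Oas1g and Oas1a share the stretch around their element, Isg15 has 3 overlapping matches, and those of Ifit1 read on the opposite strand. Oas3, with 1 match, rose by 1.68.

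Genes of proliferation and energy metabolism were lower by small amounts. Of 32 G2 and mitosis genes, 23 fell (71.9%, against 20.4% of all genes) and none rose, with a median of -0.19. Ccna2, cyclin A2, was 174, 178 and 180.4 CPM in the control libraries and 133, 147 and 132 in the both-allele libraries, a log2 change of -0.37 ± 0.06 (SE, adjusted p = 0.000353), and Birc5 and Kif20a changed by -0.32 ± 0.04 and -0.33 ± 0.05. Of 31 replication genes 20 fell (64.5%) and none rose. The falls were led by Ccne1, cyclin E1, from 25.3, 24.7 and 23.7 to 15.4, 16.7 and 16.2 CPM. Of 30 oxidative phosphorylation genes 21 fell (70.0%) and none rose, with a median of -0.20. Cox5a, of respiratory complex IV, was 128, 119 and 115 CPM in the control libraries and 86.7, 94.7 and 86.1 in the both-allele libraries. Its log2 change was -0.43 ± 0.05 (SE, adjusted p = 4.76e-05). Of 27 MYC and ribosome biogenesis genes, 13 fell (48.1%) and 1 rose (3.70%, against 20.6% of all genes). Those falls numbered 7 without any one of control replicates 2 and 3 and both-allele replicates 1 and 3. Myc itself rose, from 193, 227 and 224 to 340.4, 283 and 293 CPM (log2 change 0.51 ± 0.11 SE, adjusted p = 0.00311), while its target Odc1 changed by -0.46 ± 0.05. None of 32 ribosomal protein genes was called by edgeR, and their median was 0.06; Rps24 passed with DESeq2 (0.14, adjusted p = 0.041) and without control replicate 1, and Rps20 when the 6 libraries were fitted alone (0.16, adjusted p = 0.033).

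Lipid and stress genes had a few large changes. Scd3, a fatty acid desaturase of sebaceous glands, had 7 counts summed over the control libraries and 11754 over the both-allele libraries, where it was 38.4, 53.5 and 58.3 CPM. Its paralogs moved less, with Scd2 higher by 0.50 ± 0.06 and Scd1 changed by -1.60 ± 0.22 from 1.45 CPM. Acacb, the carboxylase that restrains mitochondrial fat oxidation, rose from 3.12, 3.48 and 4.08 to 16.7, 22.8 and 18.8 CPM (log2 change 2.45 ± 0.16 SE, adjusted p = 6.95e-07). In cholesterol synthesis the enzyme gene Sqle changed by -0.82 ± 0.07. Of 21 glycolysis genes 4 rose (19%) and 3 fell (14.3%), no more than among all genes, with Hk3 higher by 0.62 and Pkm by 0.39, and with Ldha at -0.36. Of 21 p53 targets 7 rose (33.3%, against 20.6% of all genes) and 1 fell (4.76%, against 20.4%). Their called share of 38.1% was below the 41.0% of all genes. Trp53inp1, Zmat3 and the death gene Pmaip1 (Noxa) rose by 1.28 ± 0.09, 1.25 ± 0.13 and 1.24 ± 0.22, whereas Mdm2, the ubiquitin ligase of p53, differed by 0.08 and was not called. Of 21 NF-kB targets 10 rose (47.6%) and 3 fell (14.3%), against the same shares of all genes. Relb was higher by 1.22 ± 0.19 and Nfkbie by 0.63 ± 0.07, and Icam1 changed by -0.52 ± 0.08. The ATF4-linked list had 5 of 21 higher (23.8%, against 20.6% of all genes) and 7 lower (33.3%, against 20.4%). Its members ran from Ddit4 at 1.24 to Vldlr at -3.05.

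Regulators and surface molecules of hematopoiesis changed in both directions. Hox genes and their partners fell in 5 of 19 cases and rose in 1, a share called (31.6%) below the 41.0% of all genes, so that only single members are described. Hoxa9, which drives progenitor self-renewal, fell from a mean of 24.9 to 4.89 CPM (-2.35, adjusted p = 0.00279), Hoxa10 changed by -3.64 ± 0.57 and the partner Pbx3 by -2.45 ± 0.15. Meis1 was 34.4 and 21.97 CPM and was not called (adjusted p = 0.061), though it passed when the 6 libraries were fitted alone (-0.65, adjusted p = 0.032), by limma-voom (adjusted p = 0.024) and without both-allele replicate 1 (adjusted p = 0.04). Among myeloid transcription factors Ikzf2, Helios, rose from 35.2, 36.6 and 43.8 to 89.8, 83.5 and 119.6 CPM (log2 change 1.34 ± 0.13 SE, adjusted p = 1.29e-05) and Etv6 by 0.51 ± 0.04, and Runx2 changed by -0.75 ± 0.06. Cebpa, the factor of granulocyte commitment, fell by 0.32 on the log2 scale. Of 27 cytokine receptor genes 11 fell (40.7%, against 20.4% of all genes) and 4 rose (14.8%, against 20.6%). Csf3r, the G-CSF receptor, was one that rose, at 0.39. The rises numbered 2 without any one library other than both-allele replicate 2. The chemokine receptor genes Ccr1 and Cxcr2 rose by 2.55 ± 0.21 and 1.44 ± 0.15.

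Genes linked to EVI1 in earlier work on leukemia rose in 10 of 23 cases and fell in 3, with a median of 0.21. The share that rose was 43.5%, against 20.6% of all genes. The share that fell was below the 20.4% of all genes. Itga6, an integrin of EVI1-high leukemia, was 115, 105 and 109 CPM in the control libraries and 170.4, 186 and 182 in the both-allele libraries (log2 change 0.71 ± 0.06 SE, adjusted p = 2.48e-06). Adgrg1, the receptor GPR56 of the same leukemias, rose by 0.73 and Itgb4, the partner of Itga6, by 1.69 ± 0.26 from a mean of 0.488 CPM. The EVI1 cofactors Ctbp1 and Hdac1 were not called, and Ctbp2 fell (-0.15 ± 0.04, adjusted p = 0.0198), a call that ended without control replicate 2 or 3 or both-allele replicate 3. Of 28 integrin and adhesion genes 11 fell (39.3%, against 20.4% of all genes) and 6 rose (21.4%, against 20.6%). Itgal, of the leukocyte integrin LFA-1, fell from 193, 194 and 203 to 55.7, 61.8 and 55.8 CPM (log2 change -1.77 ± 0.07 SE, adjusted p = 2.18e-08). In the TGF-beta pathway the inhibitory Smad6 rose by 2.14 ± 0.27, the co-receptor Tgfbr3 changed by -1.59 ± 0.20 and the latency protein Ltbp1 by -4.06 ± 0.48. Among chromatin regulators mutated in leukemia Dnmt3a and Idh1 rose by 0.48 ± 0.05 and 0.47 ± 0.06.

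The splicing machinery changed little at the gene level. Of 14 SF3A and SF3B subunits and partners, 2 fell and none rose, a called share of 14.3%, below the 41.0% of all genes. Sf3b6, the subunit at the branch point adenosine, was 86.5, 82.5 and 77.1 CPM in the control libraries and 52.9, 56.5 and 62.8 in the both-allele libraries, a log2 change of -0.52 ± 0.14 (SE, adjusted p = 0.0119), and Phf5a changed by -0.22 ± 0.04. Sf3a3, at -0.10 ± 0.04, did not pass (adjusted p = 0.0732), but passed with DESeq2 (adjusted p = 0.047) and without both-allele replicate 2 (adjusted p = 0.031). Rbfox2, a splicing regulator with a low level here, was 1.56, 1.45 and 1.62 CPM in control and 0.155, 0.299 and 0.185 with both alleles (log2 change -2.86 ± 0.33 SE, adjusted p = 4e-05). Of 29 other splicing factors 4 rose and 2 fell, a called share of 20.7%, again below that of all genes. There were 2 rises without control replicate 2 or 3 and 1 to 4 falls over the alternatives. Of 19 factors of nonsense-mediated decay 2 fell, one of them Ncbp1 (-0.20 ± 0.05), and none rose, while without both-allele replicate 2 these were 6 and 2. The called share of these factors was 10.5%, also below that of all genes. Genes reported as mis-spliced when SF3B1 is mutant fell in 5 of 21 cases and rose in 1, the rise not passing without control replicate 2 or both-allele replicate 3. Their called share was 28.6%, below the 41.0% of all genes, and their lower share of 23.8% was near the 20.4% of all genes. Tmem14c, a heme precursor transporter of that list, was 97.8, 92.2 and 94.96 CPM in the control libraries and 77.1, 80.3 and 72.9 in the both-allele libraries (log2 change -0.31 ± 0.04 SE, adjusted p = 0.000148), and Ppp2r5a, Coasy and Dlst changed by -0.29 ± 0.05, -0.21 ± 0.05 and -0.19 ± 0.04. Map3k7 and Brd9 were not called, at -0.10 and -0.05. Splice junctions are not in the gene tables, so these are levels only.

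Genes near 0 in one group and present in the other stood at the extremes. Npy, a neuropeptide gene, had 3 counts in the 3 control libraries together and 3549 in the 3 both-allele libraries. Others were named after their values were seen. C2cd4b had 0 and 413 counts, Pkd2l1, a sour-sensing channel gene, 1 and 457, and Tdrd5, of the germ cell piRNA pathway, 1 and 335. In the other direction Pla2r1, a phospholipase receptor gene, had 322 and 3. No fold is given for these, since such low counts carry a large counting error. Counts summed over the libraries of a group do not show the spread between those libraries. Further large rises were Chil1, a chitinase-like gene of maturing neutrophils, at 1.83, 1.55 and 0.837 CPM in control and 16.97, 30.1 and 27.2 with both alleles, the calcium channel gene Cacna1b at 0.996, 0.655 and 0.517 and 15.2, 11.7 and 17.4, and Plekhh2 at 0.917, 0.756 and 0.603 and 31.3, 29.2 and 31.04.

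Other large falls included genes of membranes, coagulation and the extracellular space. Serpinf1, the secreted factor PEDF, was 15.8, 15.7 and 18.4 CPM in the control libraries and 0.357, 0.429 and 0.383 in the both-allele libraries (log2 change -5.41 ± 0.33 SE, adjusted p = 3.81e-07). Tfpi, the inhibitor of the tissue factor pathway, fell from 22.01, 20.4 and 19.8 to 0.965, 0.533 and 0.66 CPM, and Pdgfrb, a growth factor receptor of stromal cells, from 15.5, 17.6 and 19.1 to 0.691, 0.832 and 0.502. Pdgfrb belongs to the stromal list, of which 5 of 7 tested genes fell and 1 rose, against 20.4% and 20.6% of all genes. The list summed to 372 to 481 CPM in control and 85.7 to 90.7 with both alleles, mostly Vcam1 and Runx2, which other cells also express; the part of stromal cells in other results was not tested. The matrix and niche genes Col1a1, Col1a2, Kitl and Cxcl12 were each under 1 CPM on average in both groups. Tmem184c, Tmem56, Cnn3, an actin-binding calponin, and Oaf changed by -5.62, -5.32, -4.84 and -4.66, each with no overlap between groups.

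Each gene was then asked to differ in the same direction from control, from inv(3) alone and from Sf3b1 K700E alone, with an adjusted p under 0.05 in all 3 contrasts. Of all tested genes 25.7% were higher and 23.5% lower with both alleles than with Sf3b1 K700E alone. By this rule 731 autosomal genes (5.52%) were higher and 325 (2.46%) lower with both alleles than in every other group. These counts leaned on single libraries, and were 438 and 183 without both-allele replicate 1 and 379 and 165 without both-allele replicate 3. Ly6a headed the genes above the other groups: beside its both-allele values of 47.4, 51.7 and 62.3 CPM it was 14.03, 5.24 and 8.31 with inv(3) and 5.58, 7.02 and 4.58 with Sf3b1 K700E. Its log2 differences from those groups were 2.55 ± 0.29 and 3.23 ± 0.30 (largest adjusted p = 0.000599). Bpifc, a lipid-binding family gene, was 4.87, 5.33 and 5.78 CPM in control, 5.65, 6.92 and 6.26 with Sf3b1 K700E, 27.1, 19.5 and 33.7 with inv(3) and 76.9, 56.3 and 78.3 with both alleles. Ptprf, a receptor phosphatase, followed the same order of groups, at means of 1.16, 1.36, 6.42 and 17.5 CPM, where control and Sf3b1 K700E values overlapped. Capn11, a calpain protease of the testis, did not follow it. Capn11 was 3.12, 2.42 and 2.5 CPM in control, 0.567, 1.14 and 1.5 with Sf3b1 K700E, 0.0263, 0 and 0 with inv(3) and 10.7, 6.52 and 10.01 with both alleles, so that the single-allele groups lay below control and the both-allele group above it. Fam169a, Uchl1, a deubiquitinase of neurons, Rec8, a meiotic cohesin, and Fcer2a were also above each other group, and one both-allele library of Rec8, at 13.02 CPM, lay near the highest inv(3) value of 11.99. Of the lists, stem and early progenitor genes had 6 of 32 above all other groups and 0 below, and interferon-response genes 18 of 51 above and 0 below.

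Of the 8 genes furthest below each other group, 7 were also lower with inv(3) alone than in control, Pcdh7 being the exception (adjusted p = 0.0766). Cst7 was 63.7, 40.5 and 66.4 CPM with inv(3) and 205, 211 and 243 with Sf3b1 K700E, against its 22.6, 27.9 and 23.9 with both alleles, a log2 difference from inv(3) of -1.20 ± 0.16. Lin28a, an RNA-binding protein of fetal and stem cells, was 35.7, 31.9 and 29.9 CPM in control, 17.2, 22.1 and 27.02 with Sf3b1 K700E, 12.7, 16.6 and 12.8 with inv(3) and 4.78, 6.6 and 4.69 with both alleles. For Lin28a each single allele also lay below control, and no both-allele value reached that of any other library. Sphk1, a kinase that makes sphingosine 1-phosphate, was 14.7, 15.2 and 16.5 CPM in control, 0.276, 3.81 and 3.01 with inv(3) and 0.477, 0.507 and 0.832 with both alleles; replicate 1 of inv(3) was under all 3 both-allele values although the contrast passed (adjusted p = 0.0479). Pcdh7, C1qtnf6, Ces1d, Hpn and Mylk3 completed the 8 with the largest differences, with log2 differences from inv(3) between -2.13 and -1.26.

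**Figure D4:**
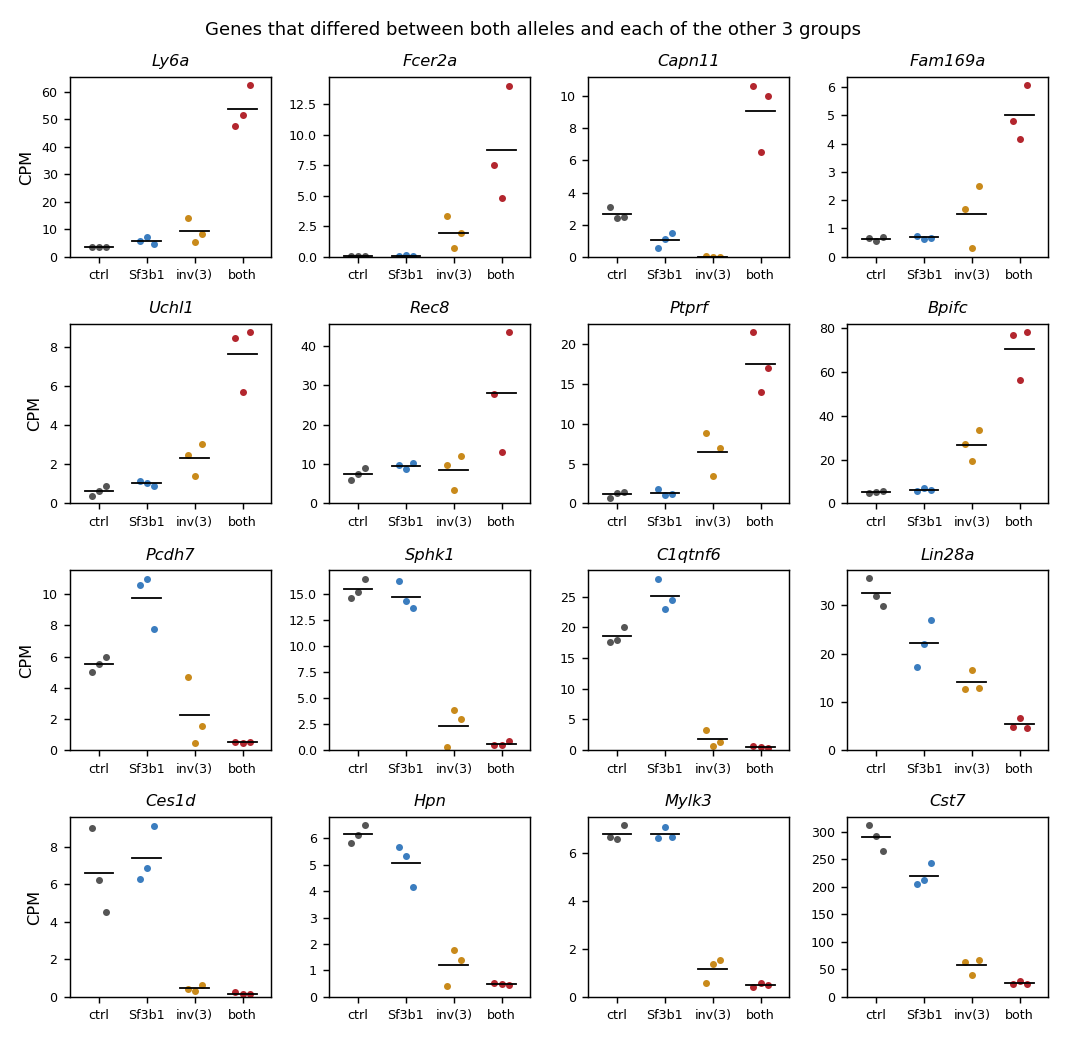
Level in CPM (vertical axes, from 0) in each of the 12 libraries for the 8 genes above and the 8 genes below each of the other 3 groups with the largest differences, with a bar at each group mean. The both-allele libraries have the highest mean in the first 8 genes and the lowest in the other 8, and Capn11 is near 0 with inv(3) alone.

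Effective length, which the authors' tables give per gene and library, is the length in bases of a gene's transcripts weighted by their estimated use, less a part set by the library's fragment lengths. It moves when the mix of isoforms moves and, by smaller amounts, with fragment length. The tables' length column lacks the fragment term, and with it Mecom was longer by 0.24 log2 units and Ece2 by 0.50, while 20 genes were longer and 17 shorter in all. Among 3285 autosomal genes with more than 1 listed transcript and at least 50 counts in every library, 11 (0.335%) were longer and 5 (0.152%) shorter with both alleles by limma on log2 length. Mecom was one of them, with 2 listed transcripts. Its effective length was 3521.9, 3605.7 and 3570.3 bases in control and 4264.2, 4218.2 and 4227.1 in the both-allele libraries, a log2 change of 0.25 ± 0.01 (SE, adjusted p = 1.56e-05). With inv(3) alone it was 4230.7, 4193.0 and 4214.3 bases and with Sf3b1 K700E alone 3652.1, 3785.5 and 3687.2, so that the longer mix accompanied the inv(3) allele in all 6 libraries that carry it. Which of the transcripts gained is not read from this value. Ece2, an endothelin-converting enzyme gene with 5 listed transcripts, had the largest change. Ece2 was 831.5, 837.2 and 834.9 bases long in control and 1258.4, 1216.8 and 1285.0 with both alleles, 0.59 ± 0.02 log2 units longer (adjusted p = 7.59e-07), and its level rose as well, from a mean of 17.9 to 31.6 CPM.

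Other called lengths changed by smaller amounts. Luc7l, a splicing factor of the U1 particle, went from 3225.4, 3180.8 and 3202.4 to 3446.0, 3408.0 and 3430.8 bases, Mllt3 from 5694.8, 5673.1 and 5705.8 to 5914.1, 5905.9 and 5916.2, and Vezt, an adherens junction gene, changed by 0.06. Kif1b, a kinesin gene, was shorter, at 9771.8, 9744.7 and 9725.6 and 9444.2, 9507.3 and 9501.6 bases. For Mecom, Ece2, Mllt3, Luc7l, Vezt and Kif1b the call held in every alternative run on them. Ifnar2, which has membrane-bound and soluble forms, and Pnkd were also shorter, by changes of -0.09 and -0.17, and Rabgap1l was longer by 0.07; these 3 calls ended when single libraries were left out. Of the genes reported as mis-spliced with mutant SF3B1, 5 could be tested for length, and limma called none; Map3k7 had adjusted p = 0.876 and an unadjusted p = 0.0473.

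**Figure D5:**
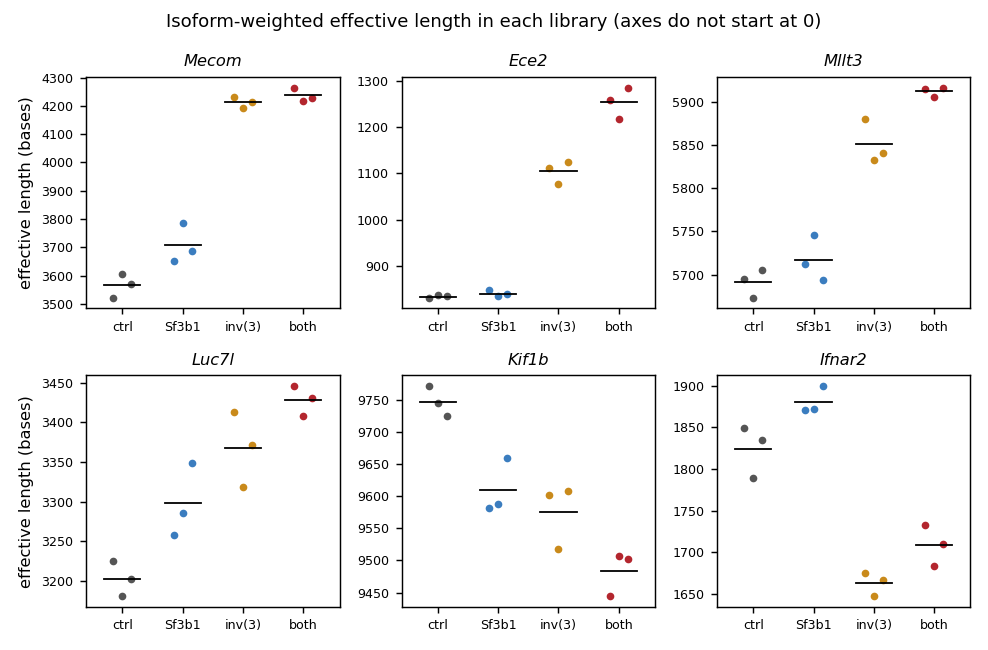
Isoform-weighted effective length in bases (vertical axes, which do not start at 0) of 6 genes in each of the 12 libraries, 3 points per group with a bar at the mean. Mecom is longer in all 6 libraries with the inv(3) allele, and Ece2 is longest in the both-allele libraries.

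Called genes were spread over the genome. By autosome the share called ran from 36.3% on chromosome 13 to 46.0% on chromosome 6, which carries Gata2, and was 42.8% on chromosome 3, which carries Mecom, beside 41.0% overall. Chromosome 17 had 178 genes higher and 104 lower, and chromosome 18 had 57 higher and 87 lower.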

How the data were processed

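Per the file headers the authors estimated an expected count per gene from the aligned reads and deposited it, beside TPM, FPKM, length and effective length in bases, in tables with RSEM's columns, 1 per library. Per the labels' protocols RNA was poly(A)-selected and libraries were made with an unstranded kit, so reads of a gene and of an antisense gene cannot be told apart. Per the submitters' processing notes bcl2fastq and mm10 were used. No source used here names the aligner or its version. Genes were placed with RefSeq (GRCm38.p6), 24161 by accession and 157 by symbol, and 93 were not placed.

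The counts, rounded to integers, were fitted with edgeR 4.0.16 (R 4.3.3; TMM scaling, low-count filter by group, robust quasi-likelihood) over all 12 libraries in 4 groups, which share one estimate of the spread. CPM are scaled to the TMM-adjusted library size. The contrast was both alleles minus control over 13755 genes, with Benjamini-Hochberg adjustment over all of them and a limit of 0.05; counts in the text are of autosomal genes. Log2 effective length was fitted with limma 3.58.1. DESeq2 1.42.0, limma-voom, other scalings and filters, other sets of libraries and leaving out each control or both-allele library were alternatives. No inv(3) or Sf3b1 K700E library was left out singly. With 3 against 3 libraries an exact permutation test cannot give a p below 0.1. In simulated counts for this contrast over 13494 genes, 95% of genes changed by -2 or -1 log2 units were recovered, 90% at 1, 67.5% at -0.5 and 50% at 0.5. The changed genes were a small share of all and were drawn above a minimum count, and 10 unchanged genes were called. These rates may not hold for low-count genes or for a contrast with as many changes as the present one.

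The members and lists were chosen with earlier results of these data known. Of 985 listed symbols 4 were not matched. Named were the 12 largest rises and falls among called genes averaging at least 5 CPM, 4 genes per list, the 8 genes furthest above and below the other groups, and 6 lengths each way. Other genes of the lists were named after their values were seen. Some genes that these rules select are not reported here. Comparisons of both alleles with the other groups share the both-allele libraries, and those with control share the control libraries.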

Additional observations from a re-analysis of the deposited data

How the results depend on the processing

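No called autosomal gene of the contrast of both alleles with control changed direction while passing under any of the 17 alternatives. The number called was 5431, with 5409 under RLE scaling, 5653 with DESeq2, 5441 with limma-voom and 3760 among genes averaging at least 5 CPM, where 67.6% of the calls were shared because fewer genes were tested. Leaving out 1 control or both-allele library at a time gave 2137 to 2577 higher and 2125 to 2611 lower genes.

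Counts of large changes moved only at the 5 CPM minimum, to 239 higher and 235 lower by over 1 log2 unit, 57 and 84 by over 2 and 22 and 39 by over 3. Genes above all other groups numbered 466 there and 379 to 830 with 1 control or both-allele library left out. Genes below them numbered 165 to 416 with 1 such library left out. For effective length, 20 genes were longer and 17 shorter when the length column was used, 10 shorter when the 6 libraries were fitted alone, and 6 to 8 longer and 2 to 3 shorter with 1 library left out. The cause of these moves was not tested. The uncalled difference of Hbb-bs (-0.41) ran from -1.42 to 1.06 with 1 library left out, with a change of sign without control replicate 2 (1.06) and without both-allele replicate 2 (0.17).

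Replicate numbers are shared between groups. Deviations of same-numbered libraries from their group means correlated at -0.21, 0.01 and -0.08. For differently numbered libraries the values ran from -0.16 to 0.23. With deviations from means of 3 libraries, such values cannot decide whether the numbers pair the libraries, and the main fit used no pairing. With a replicate block 4913 genes were called, 4863 of them shared, and 3 lengths were shorter. At 76153040 or more counts per library, genes far under 1 CPM rest on few reads and small changes are those most often missed.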
